A study of Mus musculus with 9 samples.

Results

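The GIMAP genes (GTPases of the immunity-associated protein family) encode small guanine nucleotide-binding proteins of lymphocytes. The 8 mouse members Gimap1, Gimap3, Gimap4, Gimap5, Gimap6, Gimap7, Gimap8 and Gimap9 were taken by symbol from a table of 20926 genes, and no other symbol in that table began with Gimap. All 8 passed the filter on low values and entered the tests. Blood RNA was sequenced from male DBA/1 mice, 7 weeks old by the labels, in 3 groups of 3 libraries. In the paper 7 weeks is the age at division into groups, before immunisation, and the age at sampling is not stated. The Ctrl mice were the control group, without the arthritis model and without irradiation. In the CIA group collagen-induced arthritis, a model of rheumatoid arthritis, was raised by immunisation with chick type II collagen in adjuvant. The CIA+THz mice were immunised alike, and their swollen ankles were exposed to 0.1 THz radiation for 30 min per day over 14 days under isoflurane. The sources used here do not say whether the other groups were anaesthetised or whether the Ctrl mice received adjuvant, so these could not be separated from the arthritis or the radiation. Nothing states that each library came from a separate mouse, and the p-values measure the spread between these libraries.

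GIMAP proteins sit on intracellular membranes, bind GTP and assemble with one another. They are made mainly by T cells, B cells and natural killer (NK) cells and are best known for keeping resting lymphocytes alive. Loss of Gimap5 in rodents causes a deep loss of peripheral T cells, and Gimap1 is needed for mature T and B cells.

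The 8 genes lay in 1 cluster on chromosome 6 at chr6:48647234-48770851 (GRCm38, GENCODE M21 gene models), which spans 123.6 kb. Their order along the chromosome was Gimap8, Gimap9, Gimap4, Gimap6, Gimap7, Gimap1, Gimap5 and Gimap3. Gimap6 and Gimap3 are read from the minus strand and the others from the plus strand. The annotation also holds a read-through gene, Gm28053, that runs from Gimap7 to Gimap5, and an antisense transcript, Gimap1os, over the start of Gimap1. Neither was analysed here, and the strand setting of the counting is not given in the sources used here, so reads of these overlapping transcripts could have been assigned to the members. Near-identical stretches were found for 1 of the 28 pairs of members: Gimap5 and Gimap3 shared 335 stretches of 31 bases, which is 8.02% of those of Gimap5 and 13.2% of those of Gimap3, so the levels of this pair are less certain than those of the others.

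The sequence before the start sites of the members was searched for short motifs. It was taken from RefSeq promoter windows of GRCm38.p6, from 250 bases before to 50 bases after the annotated start. All 8 members matched a window, Gimap8 with 2. The ETS core AGGAAG, read on both strands, was present in windows of 7 of 8 members, all but Gimap6, against 35.4% of 32851 windows of all genes. The RUNX core TGTGGT was present in 3 of 8, Gimap4, Gimap7 and Gimap1, against 16.8% of all windows, and the TCF/LEF core CTTTGA in 2 of 8 against 16.0%. The KLF core GGGTGG was found in 5 of 8 members against 31.5%. The GATA core AGATAA, whose share of all windows was 11.2%, and the IRF motif of 2 GAAA runs 2 bases apart, with 3.44%, were in 0 of 8. Counted by window the numbers were the same, out of 9 windows of members. Those windows held 2 to 8 CpG pairs (C followed by G), against a median of 7 over all windows. A match is a run of letters and not a measured binding site, and a link of the motifs to the levels was not tested. Shown here are 130 bases from the window of Gimap7, the member with the largest difference in CIA. The others shown are Gimap4, one of the most abundant members, and the related pair Gimap5 and Gimap3. Each stretch ends just before the first annotated exon of any gene. For Gimap4, Gimap5 and Gimap3 this was the start of the member itself. For Gimap7 it was the start of the read-through gene Gm28053 at chr6:48718607, ahead of the start of Gimap7 at chr6:48718621. Each stretch is written 5′ to 3′ on the strand of its gene, with ETS and RUNX matches of either strand in capitals. The intervals are chr6:48718477-48718606 (plus strand) for Gimap7, chr6:48684419-48684548 (plus strand) for Gimap4, chr6:48746067-48746196 (plus strand) for Gimap5 and chr6:48770852-48770981 (minus strand) for Gimap3.
Gimap7: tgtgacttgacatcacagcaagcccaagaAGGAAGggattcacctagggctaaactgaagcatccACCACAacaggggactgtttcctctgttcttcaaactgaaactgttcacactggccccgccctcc
Gimap4: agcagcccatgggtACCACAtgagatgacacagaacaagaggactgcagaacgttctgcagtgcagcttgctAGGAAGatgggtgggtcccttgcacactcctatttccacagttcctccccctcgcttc
Gimap5: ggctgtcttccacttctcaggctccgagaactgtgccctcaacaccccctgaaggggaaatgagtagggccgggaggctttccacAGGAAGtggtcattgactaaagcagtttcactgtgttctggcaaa
Gimap3: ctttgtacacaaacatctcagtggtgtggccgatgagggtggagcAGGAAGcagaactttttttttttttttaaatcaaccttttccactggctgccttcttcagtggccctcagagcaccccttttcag
Gimap7 and Gimap4 each carried 1 match of both kinds in these stretches, and Gimap5 and Gimap3 carried the ETS core alone.

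The levels below are FPKM (fragments mapped to a gene, corrected for transcript length and library size), rescaled by 1 factor per library. Since FPKM is corrected for length, members can be ranked. Over the 9 libraries Gimap3, at a mean of 120 rescaled FPKM, and Gimap4, at 109, were the most abundant, and their ranges overlapped, with Gimap3 the higher in 7 of 9 libraries. Every other member lay below both in all libraries. Gimap6 averaged 42.2 and Gimap1 34.9 rescaled FPKM, again with overlapping ranges. The remaining 4, Gimap7 (20.8), Gimap8 (20.4), Gimap5 (17.6) and Gimap9 (15.1), could not be put in a firm order, since each range overlapped that of the next. The order of the means also differed between groups. Gimap7 had rank 5 in Ctrl with 29.1 rescaled FPKM, rank 7 in CIA with 13.7 and rank 6 in CIA+THz with 19.6, and Gimap1 stood at 35.7 beside Gimap6 at 34.3 in CIA, where their ranges overlapped. Gimap3 and Gimap4 together made up 59.4% ± 2.64 of the summed level of the family in Ctrl, 59.3% ± 1.02 of that in CIA and 61.6% ± 3.36 of that in CIA+THz (SD, n = 3 each).

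As shown by the levels of each library, the family was lower in CIA than in Ctrl, with the exception of Gimap1. The summed level of the 8 members was 373, 454 and 443 rescaled FPKM in the Ctrl libraries and 329, 316 and 289 in the CIA libraries. In the CIA+THz libraries it was 420, 420 and 376, so that CIA lay below both other groups without overlap. Gimap7 was the 1 member of 8 that passed the criterion used for pairs of groups, an unadjusted p under 0.05 with a log2 fold change beyond 0.67 in either direction, which 9.04% of the 12366 genes tested passed in CIA against Ctrl, 4.25% with lower levels. At p under 0.05 alone 7 of 8 members were lower, against 8.45% of all genes, and 6 of 8 did not overlap between the groups, against 11.8% of all genes that were lower without overlap. The 7 became 4 on the FPKM as deposited, 4 with a variance model without a trend on the mean, and 4 after GC correction. The share of all genes was not counted under these alternatives. The median log2 fold change of the members was -0.51, beside -0.01 over all genes tested. After adjustment over all genes 0 of 8 members had a limma p under 0.05, as against 0.154% of all genes. In blood RNA of mixed cells, a smaller share of a cell type and less RNA per cell cannot be told apart. The paper reported raised blood counts of lymphocytes, neutrophils and monocytes in CIA mice. In irradiated CIA mice it reported lower counts of these cells than in CIA mice. How these counts relate to the RNA levels was not tested.

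**Figure D1:**
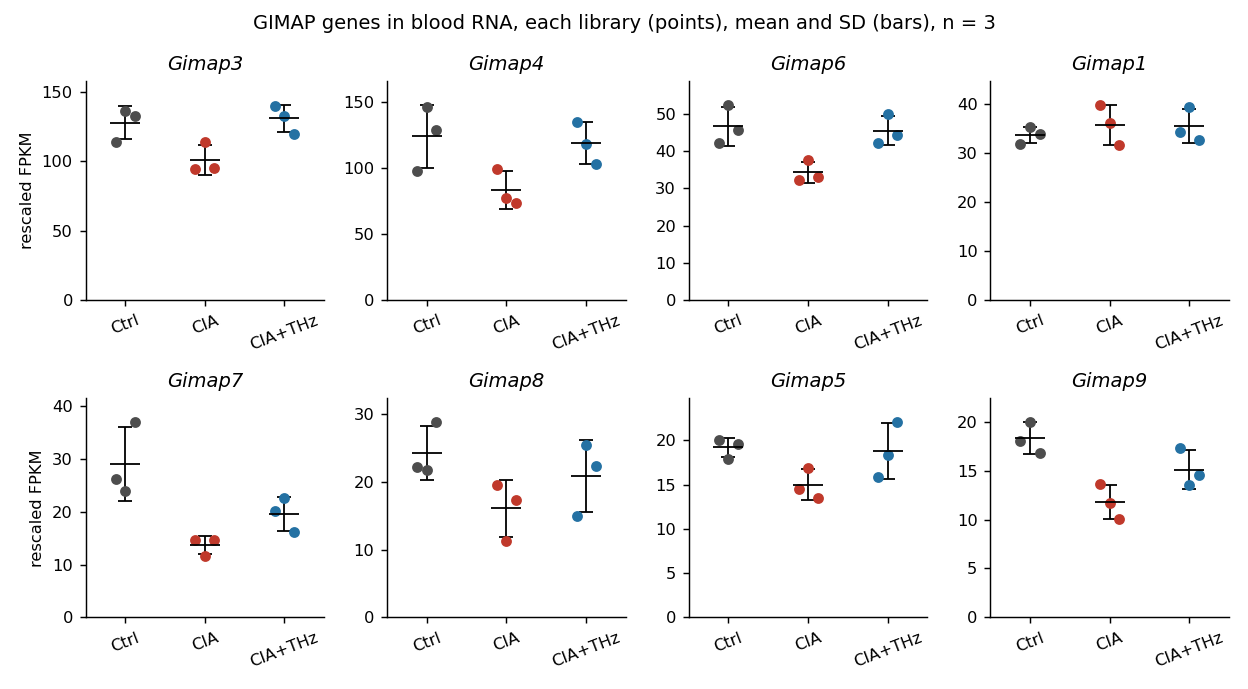
Rescaled FPKM (vertical axes, starting at 0) of the 8 GIMAP genes in Ctrl, CIA and CIA+THz; points are libraries, horizontal bars the mean and error bars the SD (n = 3). The 3 CIA points of Gimap7, at 11.7 to 14.7, lie below all others of that gene, while the groups of Gimap1 overlap between 31.5 and 39.7.

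Among the members tied to lymphocyte survival, Gimap5, whose loss depletes peripheral T cells, had levels of 20.0, 17.9 and 19.6 rescaled FPKM in Ctrl and 14.5, 16.9 and 13.5 in CIA. All CIA libraries were below all Ctrl libraries, with a log2 fold change of -0.36 ± 0.14 (SE), a 95% confidence interval from -0.69 to -0.03, and in limma an adjusted p of 0.250. Gimap3, a close relative of Gimap5, gave 114, 136 and 133 in Ctrl and 94.7, 114 and 95.2 in CIA. The groups just failed to touch, since the lowest Ctrl and the highest CIA library both round to 114. Its log2 fold change was -0.34 ± 0.13 (limma adjusted p = 0.241). Both were smaller differences than the criterion asks for.

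Gimap1, required for mature lymphocytes, stood apart from the rest. Its levels were 31.8, 35.2 and 33.8 rescaled FPKM in Ctrl, 39.7, 36.0 and 31.5 in CIA and 34.3, 39.3 and 32.6 in CIA+THz, with overlap between all groups. The log2 fold change of CIA against Ctrl was 0.08, with a 95% interval from -0.21 to 0.38 (limma adjusted p = 0.775), and it turned to -0.13 when the values were corrected for GC content. Its longest transcript has the highest GC content of the family, 57.0% against 41.3% to 51.0% for the others. For CIA+THz against CIA the log2 fold change was -0.01, from -0.31 to 0.28, and it became 0.27 on the FPKM as deposited, 0.02 with upper-quartile scaling and 0.07 after GC correction.

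Gimap4, which speeds the death of T cells once apoptosis has begun, was measured at 98.1, 146 and 129 rescaled FPKM in Ctrl and 99.7, 77.1 and 73.5 in CIA. CIA replicate 1 lay just above Ctrl replicate 1, and the other CIA libraries were below all of Ctrl. The log2 fold change was -0.57 ± 0.19, with an interval from -1.01 to -0.13 (limma adjusted p = 0.200). Gimap8, a larger member with several GTPase domains, gave 22.2, 21.8 and 28.9 in Ctrl and 19.5, 11.3 and 17.4 in CIA. Its groups did not overlap, and its log2 fold change of -0.62 ± 0.23 (limma adjusted p = 0.239) had the largest error of the family. After correction for GC content the log2 fold changes of Gimap4, Gimap8 and Gimap9 were -0.37, -0.36 and -0.41, and of these 3 Gimap9 alone kept an unadjusted p under 0.05.

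Gimap7 is a GTPase that can act as a partner of other members, and Gimap6 has been linked to autophagy. Gimap7 was at 26.2, 24.0 and 37.1 rescaled FPKM in Ctrl, 14.6, 11.7 and 14.7 in CIA and 20.1, 22.6 and 16.1 in CIA+THz. The 3 groups did not overlap, with CIA the lowest and CIA+THz between. Gimap7 fell in CIA by 1.06 ± 0.20 on the log2 scale, or 2.09-fold, with an interval from -1.53 to -0.60 (limma adjusted p = 0.0700). An exact permutation test of this gene alone gave p = 0.10, the smallest that 3 against 3 libraries can give. Leaving out each of the 6 libraries in turn kept the log2 fold change between -1.19 and -0.88, with an unadjusted p under 0.05 in all 6 fits.

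Gimap6 had 42.2, 52.5 and 45.6 rescaled FPKM in Ctrl, 32.2, 37.5 and 33.1 in CIA and 42.3, 49.9 and 44.3 in CIA+THz. CIA lay below both other groups, and those overlapped each other. The log2 fold change in CIA was -0.44 ± 0.13 (limma adjusted p = 0.168) and p stayed under 0.05 in all 6 fits without 1 library. Gimap9 had 18.0, 20.0 and 16.8 in Ctrl and 13.6, 11.7 and 10.1 in CIA, with no overlap. Its log2 fold change was -0.63 ± 0.16 (limma adjusted p = 0.130), which is just short of the 0.67 of the criterion, and here too p was under 0.05 in all 6 such fits. Of the other members, Gimap3, Gimap4 and Gimap5 kept an unadjusted p under 0.05 in 2 of 6 fits and Gimap8 in 3 of 6. Gimap3 kept it without Ctrl replicate 1 or CIA replicate 2, Gimap4 without Ctrl replicate 1 or CIA replicate 1, and Gimap5 without Ctrl replicate 2 or CIA replicate 2. Gimap8 lost it without Ctrl replicate 1, Ctrl replicate 3 or CIA replicate 2.

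The comparison of CIA+THz with CIA asked whether irradiation of the ankle was accompanied by a difference in the blood. It shares the CIA libraries with the comparison above, so the directions of the 2 comparisons are not independent. None of the members passed the criterion (0 of 8, against 4.54% of all genes), and after adjustment over all genes limma called 0 of 8 members and 0 of 12366 genes, of which 1634 had an unadjusted p under 0.05. At unadjusted p under 0.05 alone, 4 of 8 members were higher in CIA+THz, against 5.89% of all genes, and the same 4, Gimap4, Gimap6, Gimap7 and Gimap3, were above all CIA libraries without overlap, against 9.38% of all genes. The median log2 fold change of the members was 0.38, beside 0.03 over all genes. This comparison depended on the scaling more than the first, because the FPKM as deposited put the typical gene 0.28 higher on the log2 scale in CIA+THz than the rescaled values did. On the deposited scale all 8 members were higher, 7 of them at unadjusted p under 0.05, with a median of 0.66 beside 0.29 over all genes. Gimap4 (0.79), Gimap6 (0.68) and Gimap7 (0.79) passed the criterion, as did 1199 genes in all on that scale, against 561 on the rescaled values. The share of all genes at unadjusted p alone was not counted on the deposited scale. The tissue is labelled as blood leukocyte, yet Alas2, a marker of red cell precursors, took 11.4% to 14.0% of the summed FPKM in CIA+THz, 16.3% to 16.7% in CIA and 14.4% to 16.6% in Ctrl. The part of this red cell RNA in the scale of the other genes was not tested.

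Member by member, Gimap6 was higher by 0.41 ± 0.11 on the log2 scale, with an interval from 0.15 to 0.66 (limma adjusted p = 0.239). Gimap3, at 140, 133 and 120 rescaled FPKM in CIA+THz, was higher by 0.38 ± 0.11 (limma adjusted p = 0.264). Gimap4, at 135, 118 and 103, was higher by 0.51 ± 0.15, from 0.15 to 0.87 (limma adjusted p = 0.265). These 3 genes kept p under 0.05 when any 1 of the 6 libraries was left out. Gimap7 was higher by 0.51 ± 0.17, from 0.11 to 0.90 (limma adjusted p = 0.292), and lost p under 0.05 without CIA replicate 2, CIA+THz replicate 1 or CIA+THz replicate 2. Gimap5, at 15.9, 18.3 and 22.1 rescaled FPKM, differed by 0.32, with an interval from -0.06 to 0.69. Gimap9, at 17.3, 13.5 and 14.6, differed by 0.36, from -0.02 to 0.73, and Gimap8, at 15.0, 25.4 and 22.4, by 0.38, from -0.26 to 1.02. The intervals of these 3 hold 0 and also differences as large as those of the 4 genes above.

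**Figure D2:**
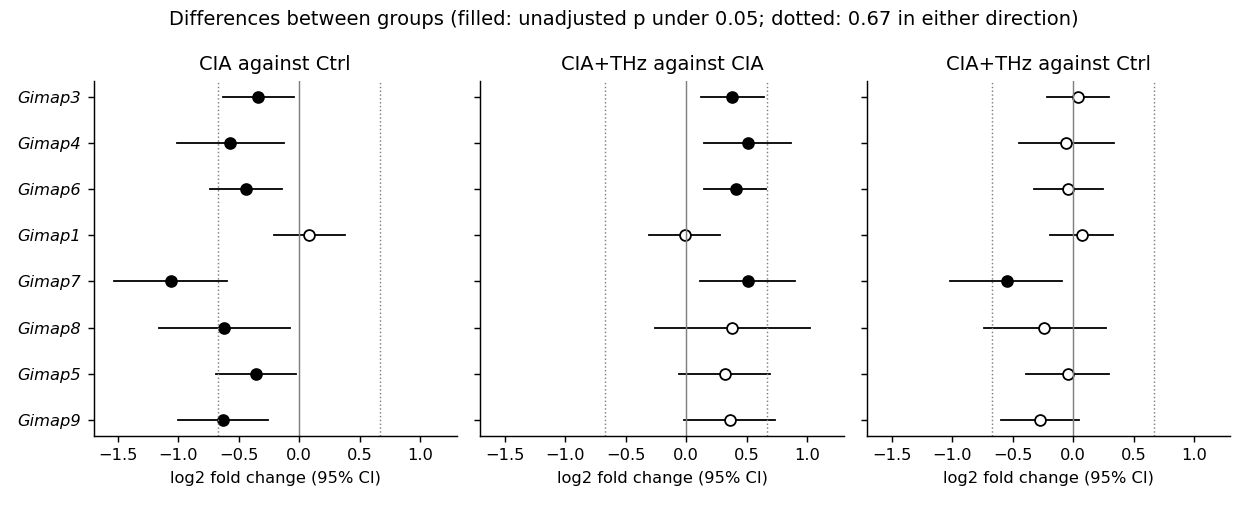
Log2 fold change (horizontal axis) of each GIMAP gene in the 3 comparisons with its 95% confidence interval from limma; filled points have an unadjusted p under 0.05 and dotted lines mark 0.67 in either direction. Only the point of Gimap7 in CIA against Ctrl, at -1.06, is both filled and beyond a dotted line.

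Set beside Ctrl, the irradiated arthritic mice had 0 of 8 members past the criterion, against 7.88% of all genes, and by limma 0 of 8 after adjustment, against 0.105%. Gimap7 alone had an unadjusted p under 0.05 (1 of 8, against 9.69% of all genes that were lower). Its log2 fold change was -0.55 ± 0.20, from -1.02 to -0.09 (limma adjusted p = 0.215), with every CIA+THz library below every Ctrl library, a pattern that 12.0% of all genes showed. Without Ctrl replicate 3, which had the highest Gimap7 level, CIA+THz replicate 1 or CIA+THz replicate 3, the unadjusted p was no longer under 0.05. It was also above 0.05 without the variance trend and on the FPKM as deposited, where the log2 fold change of Gimap7 was -0.25 and where Gimap1 (0.38) and Gimap3 (0.35) were higher in CIA+THz at unadjusted p under 0.05. For the other members the log2 fold changes ran from -0.27 (Gimap9) to 0.07 (Gimap1). The widest interval was that of Gimap8, from -0.74 to 0.27, and that of Gimap3, from -0.22 to 0.30, was among the narrowest. The signs of these small differences were not stable. On the FPKM as deposited, Gimap4, Gimap5, Gimap6, Gimap8 and Gimap9 turned from below to above Ctrl. The median log2 fold change over all genes was 0.33 on that scale, close to the 0.38 of Gimap1 and the 0.35 of Gimap3.

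Across the 3 groups together, the F-test of limma gave an unadjusted p under 0.05 for 5 of 8 members, against 21.3% of all genes. Gimap7 was the 1 member that held after adjustment over all genes (limma adjusted p = 0.0379, a level under 0.05 that 2.53% of genes reached). Gimap9, Gimap6, Gimap4 and Gimap3 followed, with limma adjusted p from 0.106 to 0.152. Gimap8, Gimap5 and Gimap1 did not pass, with limma adjusted p of 0.278, 0.287 and 0.878.

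Ratios of 2 members within a library need no scaling between libraries. They were not corrected for GC content, which is 57.0% for Gimap1, 48.1% for Gimap7 and 51.0% for Gimap3 in the longest transcript. The ratio of Gimap7 to Gimap1 was 0.822, 0.681 and 1.10 in Ctrl, 0.369, 0.325 and 0.467 in CIA and 0.587, 0.574 and 0.493 in CIA+THz. The 3 groups were fully separate in this ratio, with CIA lowest. It sets the member with the largest fall against the one that did not fall, so it was chosen from these data. The ratio of Gimap7 to Gimap3 was 0.229, 0.176 and 0.279 in Ctrl, above both other groups. It was 0.155, 0.103 and 0.155 in CIA and 0.144, 0.169 and 0.133 in CIA+THz, and these 2 groups overlapped. The ratio of Gimap1 to Gimap3 was 0.279, 0.258 and 0.255 in Ctrl, 0.419, 0.317 and 0.331 in CIA and 0.245, 0.295 and 0.270 in CIA+THz, so that here CIA was the highest group. By contrast the ratio of Gimap5 to Gimap3, the pair with shared sequence, overlapped in all groups, between 0.113 and 0.183. As a description over the 9 libraries, which share their groups, Pearson's r between the log2 levels was positive for all 21 pairs that leave out Gimap1, with a median of 0.65, and had a median of -0.01 for the 7 pairs with Gimap1. With the group means removed, the same 21 pairs had a median of 0.02 and ran from -0.54 to 0.66, with 11 of them positive.

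Marker lists of blood cells also differed between the groups. Of 17 T cell markers 14 were tested, and Trac, Trbc1 and Trbc2 were not analysed here. Their summed level was 502 to 569 rescaled FPKM in Ctrl, 403 to 445 in CIA and 501 to 666 in CIA+THz, and none was at 0. In CIA against Ctrl 8.45% of all genes were lower at unadjusted p under 0.05, and 4.25% were lower past the criterion. Of the T cell markers all 14 were lower in mean, 6 with unadjusted p under 0.05 and 2 past the criterion, with a median log2 fold change of -0.29. The 2 were Il7r, the receptor chain for the survival cytokine interleukin-7, which fell by 0.87 ± 0.11 (limma adjusted p = 0.0461), and the costimulatory receptor Cd28, which fell by 1.19 ± 0.17 (limma adjusted p = 0.0554). In CIA+THz against CIA all 14 were higher in mean, 8 with p under 0.05 and 2, Cd28 and the surface receptor Cd5, past the criterion. Their median was 0.35, close to the 0.38 of the GIMAP members. Of all genes 5.89% were higher at p under 0.05 in that comparison, and 4.54% passed the criterion in either direction. The 10 naive T cell markers, 2 of which are also in the T cell list, had medians of -0.18 and 0.41 in these comparisons.

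Other lymphocyte lists went different ways. The criterion was passed by 9.04% of all genes in CIA against Ctrl and by 4.54% in CIA+THz against CIA. The 7 NK cell markers were all lower in CIA, with a median of -0.99, 4 past the criterion and sums of 142 to 184 rescaled FPKM in Ctrl, 50.2 to 114 in CIA and 92.9 to 147 in CIA+THz. The 10 B cell markers had a median of 0.19 in CIA against Ctrl and 0.33 in CIA+THz against CIA. Among myeloid cells the 10 monocyte markers were all higher in CIA, with a median of 1.04, 7 past the criterion and sums of 2867 to 3187 in Ctrl, 5024 to 5609 in CIA and 3330 to 3587 in CIA+THz. The 11 neutrophil markers went both ways in CIA against Ctrl, from -1.35 to 4.86, with 3 higher and 1 lower past the criterion, and their median was 0.00. The higher ones were the granule genes Camp, Ltf and Ngp, of which Camp and Ltf also had a limma adjusted p of 0.0361, and the lower one was the collagenase Mmp8. In CIA+THz against CIA all 11 were lower in mean, 4 past the criterion, with a median of -0.47. The 8 platelet markers had medians of 0.08 and -0.44. Of 8 erythroid markers 7 were tested, with medians of -0.44 and -0.07. Genes used by all cells, 12 in number, had medians of 0.19 and -0.11. The part of these cell type differences in the GIMAP levels was not tested.

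**Figure D3:**
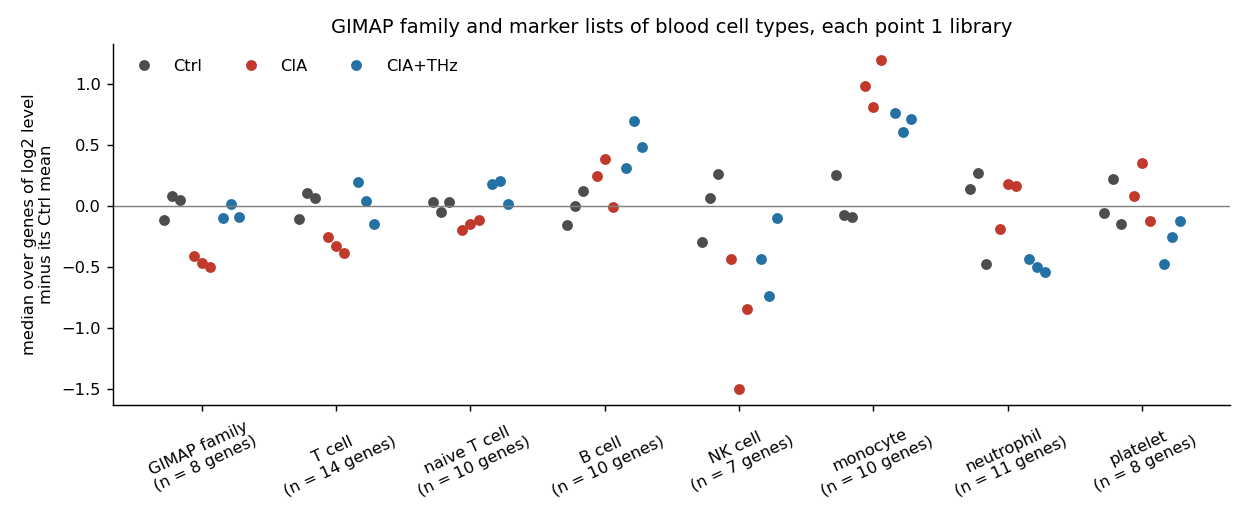
Each point is 1 library; the vertical axis is the median, over the genes of a list, of the log2 level minus the mean of that gene in Ctrl. In CIA the GIMAP family and the T cell list lie below 0 in all 3 libraries, at -0.50 to -0.41 and -0.39 to -0.26, and the monocyte list lies above it, at 0.81 to 1.19.

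Set against the mean log2 level of the 14 T cell markers in the same library, 6 of the 8 members showed overlapping groups in CIA and Ctrl, with differences from -0.23 (Gimap9) to 0.07 (Gimap3). Gimap7 was lower in CIA: relative to the T cell mean it was -0.25, -0.60 and 0.06 in Ctrl and -0.89, -1.07 and -0.80 in CIA, a difference of -0.66 with no overlap. Gimap1 went the other way, from 0.03, -0.05 and -0.07 in Ctrl to 0.54, 0.54 and 0.29 in CIA, a difference of 0.49 with no overlap. Its own log2 fold change was 0.08. The T cell mean was 4.96, 5.19 and 5.16 in Ctrl and 4.78, 4.63 and 4.69 in CIA. A gene without any change would therefore also be higher in CIA on this relative scale. In CIA+THz the relative level of Gimap7 was -0.96, -0.58 and -0.91, which overlapped CIA, and that of Gimap1 was -0.19, 0.21 and 0.10, below CIA. The T cell mean was 5.29, 5.09 and 4.93 in CIA+THz, above CIA, while Gimap1 itself differed from CIA by -0.01. These relative levels are descriptions with no test.

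Genes that act with GIMAP proteins or in the same survival pathway were followed as a list of 16, which holds Bcl2 relatives, the interleukin-7 receptor and its signalling partners and the kinases Gsk3a and Gsk3b. In CIA against Ctrl 4 passed the criterion, 2 lower and 2 higher, and the median of the list was 0.18. Of all genes 9.04% passed it in that comparison and 4.54% in CIA+THz against CIA. The lower ones were Il7r, described above, and Bcl2, the founding inhibitor of cell death. Bcl2 was at 115, 103 and 123 rescaled FPKM in Ctrl and 62.6, 65.9 and 67.7 in CIA, and fell by 0.79 ± 0.11 (limma adjusted p = 0.0513). The higher ones, Bak1 and Bad, encode promoters of cell death, and their log2 levels rose by 0.68 and 0.88. In CIA+THz against CIA Bcl2 was the 1 gene of the list past the criterion, at 111, 99.7 and 137 rescaled FPKM, a log2 fold change of 0.81 ± 0.13 (limma adjusted p = 0.172). Its 3 CIA libraries lay below every library of both other groups. The same held for Il7r of this list and for the members Gimap3, Gimap6 and Gimap7. Without overlap, 11.8% of all genes had CIA below Ctrl, and 9.38% had CIA+THz above CIA. The share of all genes with both patterns was not counted. For CIA+THz against Ctrl 0 of the 16 passed the criterion, against 7.88% of all genes. In that comparison 6 of the list had an unadjusted limma p under 0.05, 3 in each direction, beside 2236 of 12366 genes.

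None of the 4 genes measured beside the cluster was lower in mean in CIA than in Ctrl. Of 15 annotated genes taken as neighbours, 5 on each side and 5 between members, 4 were in the table, all of them outside the cluster. Repin1 and Zfp775, on the Gimap8 side, were near the floor, with group means from 0.207 to 0.563 rescaled FPKM, and neither passed a test. Their 95% intervals in CIA against Ctrl, -0.88 to 1.27 and -0.65 to 2.95, also hold the family median of -0.51. On the Gimap3 side Tmem176a and Tmem176b, membrane proteins of myeloid cells, overlap each other on opposite strands. Tmem176a averaged 1.18 ± 0.374 rescaled FPKM in Ctrl libraries, 7.64 ± 0.960 in those of CIA and 5.20 ± 1.14 with irradiation (SD, n = 3 each). It rose in CIA by 2.62 ± 0.29 on the log2 scale (limma adjusted p = 0.0361), in the direction opposite to its GIMAP neighbours. Its log2 fold change in CIA+THz against CIA was -0.56 (limma adjusted p = 0.328).

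**Figure D4:**
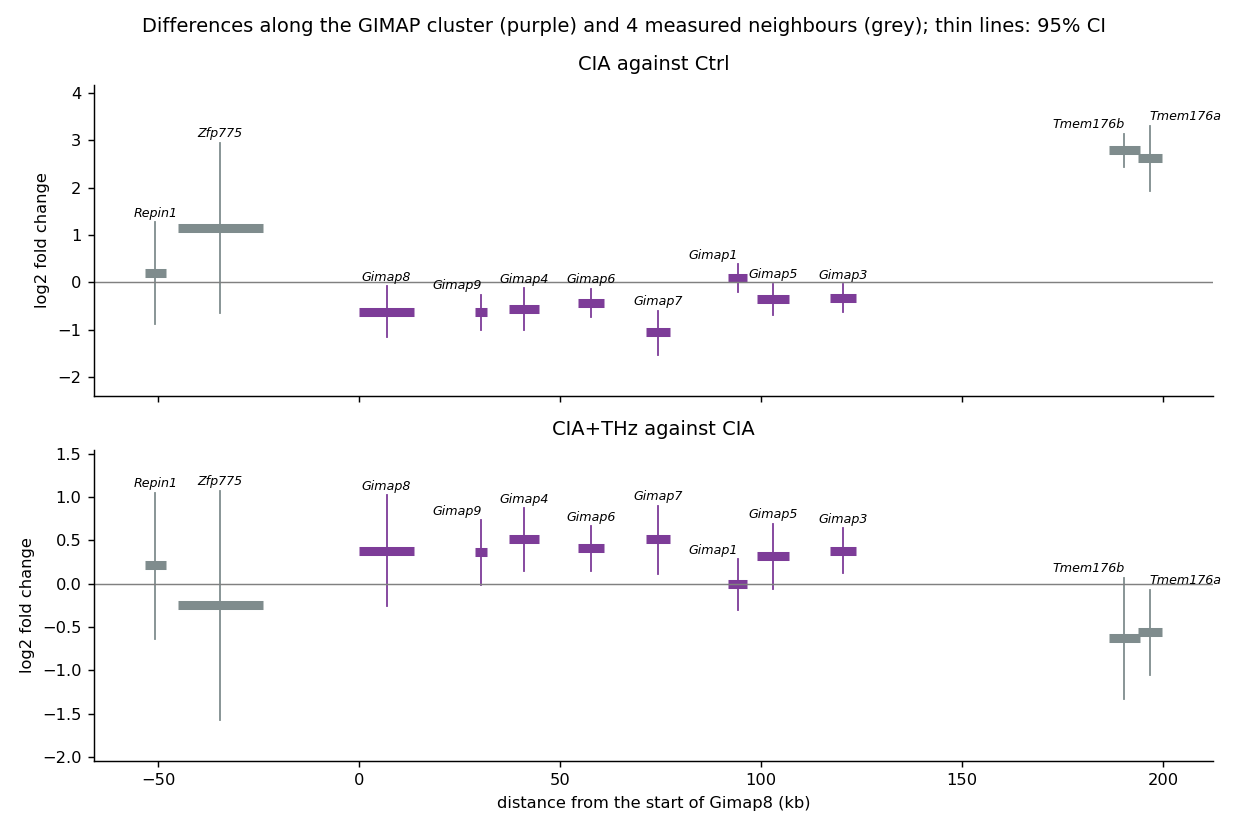
Log2 fold change (vertical axis) against distance from the start of Gimap8 in kb (horizontal axis) for the 8 GIMAP genes (purple) and 4 neighbours (grey); thick bars span each gene and thin lines are 95% confidence intervals. In CIA against Ctrl 7 GIMAP genes lie below 0 and the Tmem176 pair beyond the cluster lies above 2.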

How the data were processed

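Gene-level FPKM values were deposited by the authors as 1 table of 9 libraries. The labels name bcl2fastq 2.0, HISAT2, StringTie, DESeq2 and the build mm10, without their roles; the gene annotation is not given in the sources used here. No whole-read steps were found in the FPKM, so the depth is unknown and no interval for counting error was made. Each library was rescaled by a median-of-ratios factor (0.847 to 1.24, over 10312 genes above 0 in all libraries). The 12366 genes whose rescaled FPKM averaged 0.1 or more were kept, and log2(rescaled FPKM + 0.1) was tested with limma 3.58.1 (trend on the mean) in R 4.3.3. A fold change on this scale understates the change of low genes. The F-test used all 9 libraries at p under 0.05. Each pair was fitted on its 6 libraries, with p under 0.05 and a log2 fold change beyond 0.67. Adjusted p is Benjamini-Hochberg over all genes tested. The test was run on simulated data first.

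Named are all members, their 5 annotated neighbours on each side and any between, the 5 genes most like the family mean (1 of which is not reported here), and at most 4 genes of a list. Members, lists and rules were chosen with earlier results of these data known. Sequences are from RefSeq. Libraries of a group correlated at 0.934 to 0.963 across genes and libraries of different groups at 0.923 to 0.957. Alternatives were other scalings, pseudocounts, filters and variance models, a replicate block, a GC correction (98.6% of genes had a GC content) and leaving out each library.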

Additional observations from a re-analysis of the deposited data

How the results depend on the processing

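The count of members past the criterion moved with the threshold and the scaling. Across the 3 groups it was 5, 1 with adjusted p, 3 after GC correction, and 3 to 7 without 1 library (3 without CIA replicate 3). In CIA against Ctrl it was 1, 7 by unadjusted p alone, 0 with adjusted p, and 1 to 4 without 1 library: 4 without CIA replicate 1, and 2 without Ctrl replicate 1, 2 or 3 or CIA replicate 3. In CIA+THz against CIA it was 0, 4 by p alone and 3 on FPKM as deposited, and it stayed 0 without any 1 library. In CIA+THz against Ctrl it was 0, 1 by p alone, and 0 to 1 without 1 library (1 without Ctrl replicate 2). By p alone, the counts without 1 library were 3 to 5, 3 to 5 and 0 to 1. On FPKM as deposited the counts by p alone were 4, 7 and 2, and without the variance trend 4, 4 and 0, in the order CIA against Ctrl, CIA+THz against CIA and CIA+THz against Ctrl. By p alone, the share of all genes was counted only with the main settings and not under any alternative. On FPKM as deposited the median log2 fold change over all genes was 0.02, 0.29 and 0.33, so the counts on that scale include a shift of the whole table. In the same order, 1072, 1199 and 1720 of all genes passed the criterion on FPKM as deposited, against 1118, 561 and 975 on the rescaled values. Of 360 log2 fold changes of single members under an alternative, 23 changed sign, none of which had passed a test. On FPKM as deposited, Gimap1 turned to 0.27 in CIA+THz against CIA, and in CIA+THz against Ctrl Gimap8 turned to 0.07, Gimap9 to 0.03, Gimap4 to 0.25, Gimap6 to 0.27 and Gimap5 to 0.26. With upper-quartile factors Gimap1 turned to 0.02 in CIA+THz against CIA. After GC correction Gimap1 turned to -0.13, 0.07 and -0.05 in CIA against Ctrl, CIA+THz against CIA and CIA+THz against Ctrl, and in the last Gimap4 turned to 0.01 and Gimap3 to -0.02. Without 1 library, Gimap1 ranged from -0.10 to 0.07 in CIA+THz against CIA, and in CIA+THz against Ctrl the ranges were -0.01 to 0.13 for Gimap1, -0.04 to 0.10 for Gimap3, -0.22 to 0.07 for Gimap4, -0.17 to 0.07 for Gimap5 and -0.11 to 0.05 for Gimap6. The cause of these shifts was not tested. GC correction left 4 members lower in CIA at p alone, with Gimap7 at -1.04. Replicate numbers did not pair the samples (correlation of same-numbered deviations -0.05 to 0.03, and 3 of 9 libraries closest to their own number). With the replicate block, the counts past the criterion were 1, 0 and 0, the counts by p alone 6, 5 and 0, and Gimap7 was at -1.06 in CIA against Ctrl. TMM factors were not run, and upper-quartile factors took their place. With 3 libraries per group and an unknown depth, small differences such as that of Gimap1 were not resolved.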

Other observations

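Outside the family, 9740 genes with a mean of at least 1 rescaled FPKM were ranked by Pearson's r of their log2 level with the mean of the centred GIMAP levels over the 9 libraries, as a description of libraries that share their groups. Among the 5 closest were Tmem64 (r = 0.94), Pdcd4 (0.94), an inhibitor of translation, Fgf13 (0.94) and Trim56 (0.94), a ubiquitin ligase of antiviral defence. Spearman's rho was 0.85, 0.85, 0.92 and 0.90. Pdcd4 was the most abundant of these 4, with 61.7 ± 5.91 rescaled FPKM in Ctrl, 40.4 ± 4.41 in the CIA libraries and 58.9 ± 3.62 in the CIA+THz libraries (SD, n = 3 each). Fgf13 was the lowest, at 2.64 ± 0.384, 1.16 ± 0.151 and 1.81 ± 0.327. These genes were chosen for this pattern, so no test is given.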
